A study of Homo sapiens with 8 samples.

Results

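Interferon-stimulated genes were followed here as a group of 46 genes, chosen by name as classical targets of type I and type III interferons, out of 28518 gene rows in the deposited count table. All 46 were found in the table, and all 46 passed the filter on low counts. Their RNA was measured in CARD14-knockout HaCaT cells, where HaCaT is a line of spontaneously immortalised keratinocytes from human skin. The cells were transfected with a plasmid that encodes CARD14, a peptide that splits during translation, and eGFP, and GFP-positive cells were sorted 24 h later for RNA sequencing. The plasmid carried CARD14 with the change R820W, N737H or I593T, which the series text calls hypomorphic, or wild-type CARD14 (WT). All groups therefore share the CARD14 knockout, the transfection and the sort. Reads were counted per gene symbol, so CARD14 reads from the plasmid and any from the knockout locus cannot be told apart. No library of knockout cells without plasmid was analysed here. For each construct there were 2 libraries, whose titles carry the letter A or B. According to the series text the work covered 2 independent experiments, but no label says that a letter marks an experiment, so the p-values reflect how far these libraries spread, which may be technical in part. The labels do not say whether the knockout line is a single clone.

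CARD14 is an epithelial scaffold protein that activates NF-kB through BCL10 and MALT1. Interferon-stimulated genes answer a different signal. Type I and type III interferons bind their receptors, the kinases JAK1 and TYK2 phosphorylate STAT proteins, STAT2 among them, which act together with IRF9 in the factor ISGF3. ISGF3 binds a short promoter element, the interferon-stimulated response element (ISRE), and turns on genes whose products sense viral RNA, block viral entry and translation, or tag proteins with ISG15. Keratinocytes carry receptors for both types, and a set of these genes is raised in several inflammatory skin diseases. The study looked for pathways that the variants activate differently from WT CARD14, and the question here is whether this group of genes was among them.

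The promoters of 4 of the genes are shown because they carry the core of the element through which ISGF3 acts. By rule, these were the first listed gene with that core in each of 4 sets of genes grouped by role. The sequences are the RefSeq windows of GRCh38.p14, from 250 bases before to 50 bases after the start of the gene. Each is read 5′ to 3′ on the strand of the gene. Capitals mark the core of the element, searched as GAAA, any 2 bases and GAAA, or on the opposite strand as TTTC, any 2 bases and TTTC.
IFIH1: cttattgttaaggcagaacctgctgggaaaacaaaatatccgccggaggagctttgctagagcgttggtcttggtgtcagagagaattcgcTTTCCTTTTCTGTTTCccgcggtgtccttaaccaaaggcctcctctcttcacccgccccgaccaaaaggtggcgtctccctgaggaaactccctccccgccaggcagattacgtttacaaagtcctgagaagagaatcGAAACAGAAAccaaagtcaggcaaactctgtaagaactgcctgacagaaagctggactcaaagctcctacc
IFIT1: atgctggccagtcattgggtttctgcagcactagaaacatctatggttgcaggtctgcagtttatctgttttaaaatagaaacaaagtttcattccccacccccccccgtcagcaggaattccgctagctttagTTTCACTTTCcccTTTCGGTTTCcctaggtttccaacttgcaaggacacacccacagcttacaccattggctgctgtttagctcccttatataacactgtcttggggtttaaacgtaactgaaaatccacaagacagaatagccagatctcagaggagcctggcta
OAS3: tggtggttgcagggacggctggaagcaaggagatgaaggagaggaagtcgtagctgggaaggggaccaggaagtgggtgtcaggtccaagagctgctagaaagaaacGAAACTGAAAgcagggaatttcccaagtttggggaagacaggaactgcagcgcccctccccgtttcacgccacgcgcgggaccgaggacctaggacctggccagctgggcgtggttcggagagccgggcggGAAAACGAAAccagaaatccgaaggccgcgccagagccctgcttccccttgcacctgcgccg
ISG15: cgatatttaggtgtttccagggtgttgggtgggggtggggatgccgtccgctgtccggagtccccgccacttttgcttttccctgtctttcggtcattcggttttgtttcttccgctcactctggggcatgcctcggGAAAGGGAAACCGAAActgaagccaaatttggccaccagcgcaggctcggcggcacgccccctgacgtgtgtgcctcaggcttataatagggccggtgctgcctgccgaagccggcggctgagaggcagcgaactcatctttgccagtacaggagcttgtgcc
The IFIH1 window is chr2:162318635-162318934 on the minus strand, and those of IFIT1 (chr10:89392373-89392672), OAS3 (chr12:112938224-112938523) and ISG15 (chr1:1013247-1013546) lie on the plus strand. IFIH1 holds 3 matches, of which a pair overlap, and the nearest begins 21 bases before the start. IFIT1 holds 2 matches, the nearer beginning 103 bases before the start, and OAS3 holds 2, the nearer beginning 12 bases before it. The 2 matches of ISG15 overlap, and the nearer begins 107 bases before the start. A window was at hand for 39 of the 46 genes (all but IRF7, IFIT2, OAS2, OASL, USP18, MX2 and TRIM22). Of these 39, 28 (71.8%) held the core, against 1195 of all 27305 genes with a RefSeq window (4.38%), whether or not they were counted here. PARP9 and DTX3L, which are read from opposite strands, have windows that share 137 bases. A match is a description of the letters and does not show that a factor binds there.

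Total counts ranged from 17892608 to 24629860 per library, and 14834 genes were tested. Values are given as CPM, counts scaled to a common library size, which does not correct for transcript length. CARD14 stood at 1410.4 and 1190.2 CPM in B and A of R820W, 1005 and 444 CPM in B and A of N737H, 1394 and 500 CPM in B and A of I593T, and 978 and 1127 CPM in B and A of WT, so its level varied by more than 2-fold within N737H and within I593T. Summed over 9 keratinocyte markers the level lay between 4577 and 8055 CPM in the 6 variant libraries, and between 6916 and 7143 CPM in the WT libraries. Of 5 markers of plasmacytoid and other dendritic cells, LILRA4, CD1C and CD207 had no count in any library, and the list summed to 0.0970 to 0.541 CPM in the variant libraries and 0.338 to 0.458 CPM in WT. The 7 leukocyte markers summed to 51.1 to 77.2 CPM in the variant libraries, and to 91.9 and 63.9 CPM in B and A of WT. Most of that was CD68, and CD74 had 9.22 and 1.65 CPM in B and A of WT. The part of these cell types in the results was not tested. The 2 WT libraries stood farthest apart of the 4 pairs. The chi-square statistic per gene between B and A was 27.1 for R820W, 32.7 for N737H, 53.5 for I593T and 98.1 for WT, and each is far above the value near 1 that sampling noise alone would give. Results against WT are therefore given also within each letter and without each WT library. The lists of genes and the tests were chosen with earlier results of these data known.

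No difference of these genes between constructs passed the test, and the widest gap between the 2 libraries of a construct was that of WT. The summed CPM of the 46 genes was 24617 and 20478 in B and A of R820W, 21014 and 20817 in B and A of N737H, 22145 and 18885 in B and A of I593T, and 27983 and 15816 in B and A of WT. WT library B was thus the highest of the 8 libraries and WT library A the lowest, with all 6 variant libraries between them. Gene by gene, WT A was the lowest and WT B the highest library for 16 of the 46, against 1235 of all 14834 genes tested. WT A was the lowest library for 26 of the 46 genes, against 18.1% of all genes tested, and WT B was the highest for 21, against 20.3% of all genes. For 18 of the 46 genes (39.1%) all 6 variant libraries lay between the WT libraries, against 12.4% of all genes tested. In bulk RNA, fewer responding cells and less RNA per cell cannot be told apart.

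**Figure D1:**
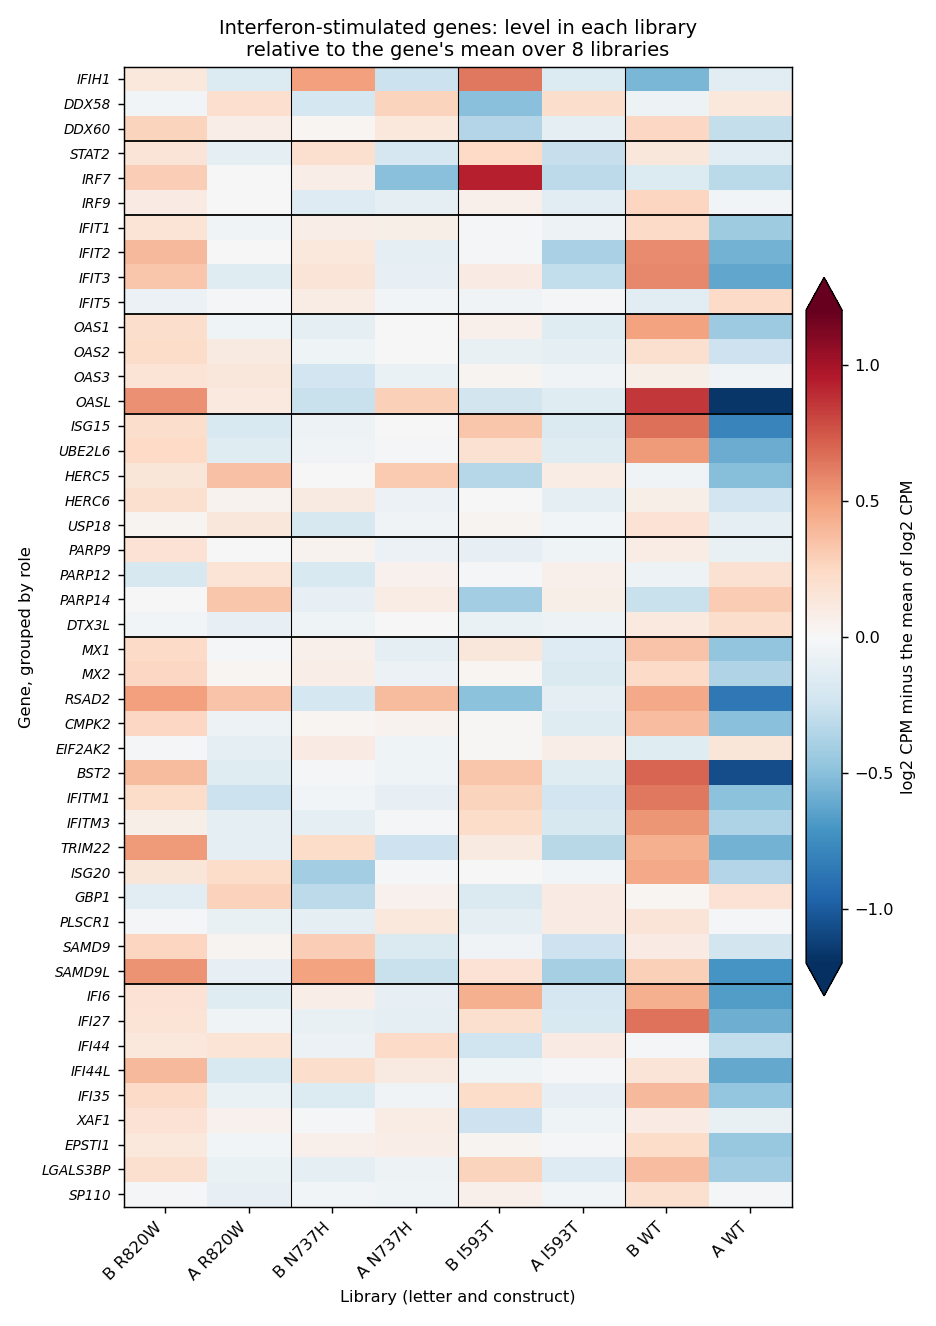
Level of each of the 46 genes (rows, grouped by role) in each of the 8 libraries (columns, letter and construct), as log2 CPM minus the mean of log2 CPM of that gene over the 8 libraries. Red is above and blue below that mean, and the colour scale ends at -1.2 and 1.2. The widest contrast is between the WT columns, where library A was the lowest of all for 26 genes and library B the highest of all for 21.

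None of the 46 genes passed the test in any of the 7 comparisons between constructs. By edgeR's quasi-likelihood test 0 of 46 genes had an adjusted p under 0.05, and 0 of 46 had an unadjusted p under 0.05, in each of them. DESeq2 and limma voom called none of them either. By edgeR no gene of the whole table was called in those comparisons (0% each), and the share of all genes with an unadjusted p under 0.05 was 1.04% for R820W against WT, 2.44% for N737H, 1.43% for I593T and 1.31% for the mean of the variants. The members' count of 0 is thus close to what all genes gave. The median log2 fold change against WT was 0.08 with R820W, where 32 of 46 genes were higher, -0.02 with N737H, where 19 were higher, and -0.07 with I593T, where 15 were higher. Over all genes tested those medians were -0.01, -0.03 and -0.02. For the mean of the variants the median was -0.01, with 21 of 46 higher. A typical gene of the group had an SE of 0.26 and a 95% interval of 0.60 to either side of its log2 fold change against WT. Smaller differences could not be told from 0 in this fit, and adjustment over all genes asks for larger ones. That limit holds for 2 libraries a group and a fit without the letter. The common biological coefficient of variation, a measure of spread between libraries, was 0.262 in it and 0.190 with the letter added. The 3 comparisons share the WT libraries.

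Among the RNA sensors, IFIH1, which encodes the sensor MDA5 of long double-stranded RNA, had the smallest unadjusted p of the group in the comparison of I593T with WT. IFIH1 had 104 and 59.7 CPM in B and A of I593T, 94.0 and 55.9 CPM in B and A of N737H, and 73.1 and 59.7 CPM in B and A of R820W, against 45.7 and 61.0 CPM in B and A of WT. The 3 variant B libraries were thus above both WT libraries, while the 3 variant A libraries lay just under WT A. The log2 fold change was 0.62 ± 0.33 with I593T (SE, unadjusted p = 0.0998, adjusted p = 1.00), 0.49 ± 0.33 with N737H (adjusted p = 1.00) and 0.32 ± 0.33 with R820W (adjusted p = 1.00). DDX58, which encodes RIG-I, the sensor of RNA with a triphosphate end, had 293 and 344 CPM in B and A of R820W, 258 and 360.1 CPM in B and A of N737H, and 212 and 346 CPM in B and A of I593T, against 288 and 327 CPM in B and A of WT. Here B was the lower library of every construct. Its log2 fold changes against WT lay between -0.14 and 0.05, with SE 0.26. The third gene of this set, DDX60, a helicase related to these sensors, ran from 228 to 349 CPM in the variant libraries and from 238 to 343 CPM in WT.

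Of the transcription factors of the response, STAT2 and IRF9 ran from 98.0 to 160.2 CPM over the 8 libraries, and IRF7 was high in a single library. STAT2, a subunit of ISGF3, had 132 and 109.6 CPM in B and A of R820W, 136 and 103 CPM in B and A of N737H, and 140.3 and 98.0 CPM in B and A of I593T, against 131 and 109 CPM in B and A of WT. Its log2 fold changes from WT were 0.01 with R820W, 0.00 with N737H and -0.01 with I593T, each with SE 0.23. IRF9, the DNA-binding subunit of ISGF3, had 143 and 134 CPM in B and A of R820W, 120.1 and 124 CPM in B and A of N737H, and 139 and 122 CPM in B and A of I593T, against 160.2 and 131 CPM in B and A of WT. Its log2 fold change was -0.25 ± 0.16 with N737H (95% interval -0.62 to 0.12, unadjusted p = 0.153, adjusted p = 1.00), and both N737H libraries lay under both WT libraries. IRF7, which drives transcription of type I interferon genes, had 239.8 CPM in I593T B and 101 CPM in I593T A, 154 and 125 CPM in B and A of R820W, and 132 and 88.9 CPM in B and A of N737H, against 112 and 100.4 CPM in B and A of WT. The I593T value rests on its B library, and the log2 fold change was 0.68 ± 0.37 (unadjusted p = 0.107, adjusted p = 1.00).

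The IFIT genes, whose products bind viral RNA and block its translation, had all 6 variant libraries between the WT libraries, for each of the 4 genes. IFIT3, the member of this family with the highest CPM, had 2727 and 1956 CPM in B and A of R820W, 2401 and 2023 CPM in B and A of N737H, and 2311 and 1755 CPM in B and A of I593T, against 3210.5 and 1399 CPM in B and A of WT. The log2 fold changes of IFIT3 were 0.02, -0.06 and -0.18 with R820W, N737H and I593T, each with SE 0.37. IFIT1, IFIT2, IFIT3 and IFIT5 together had log2 fold changes between -0.11 and 0.13 with R820W, -0.10 and 0.13 with N737H, and -0.30 and 0.02 with I593T. IFIT5 was the exception in direction within WT, with 176 CPM in library B and 227 CPM in library A.

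The OAS genes make oligoadenylates that activate RNase L, except OASL, which lacks that activity and supports signalling by RIG-I. OASL had 1259 and 932 CPM in B and A of R820W, 714 and 1046 CPM in B and A of N737H, and 738 and 775 CPM in B and A of I593T, against 1549 and 381 CPM in B and A of WT. WT A was lower than every other library and WT B higher than every other. The means were 1096 ± 232 CPM with R820W, 880.2 ± 235 CPM with N737H and 757 ± 26.0 CPM with I593T, against 965 ± 826 CPM with WT (SD, n = 2 each). The log2 fold changes of 0.18, -0.13 and -0.35 had an SE of 0.53, the widest of the group. Of the 4 OAS genes, 3 were higher with R820W, and all 4 were lower with N737H and with I593T, by at most 0.35 on the log2 scale, and none passed the test.

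The ISG15 system links the ubiquitin-like protein ISG15 to other proteins, with UBE2L6 as the conjugating enzyme, HERC5 as the main human ligase and USP18 as the protease that removes it. ISG15 had 1584 and 1202 CPM in B and A of R820W, 1305 and 1374 CPM in B and A of N737H, and 1722 and 1212 CPM in B and A of I593T, against 2153 and 790.3 CPM in B and A of WT. Its means were 1393 ± 270 CPM with R820W, 1340 ± 48.6 CPM with N737H and 1467 ± 361 CPM with I593T, against 1472 ± 964 CPM with WT (SD, n = 2 each), and its log2 fold changes were -0.08, -0.14 and -0.00, with SE 0.41. HERC5 was a weakly counted gene, with 7.93 and 9.15 CPM in B and A of R820W, 7.13 and 8.92 CPM in B and A of N737H, and 5.64 and 7.61 CPM in B and A of I593T, against 6.95 and 5.04 CPM in B and A of WT. It had the smallest unadjusted p of the group with R820W, where both libraries were above both WT libraries (log2 fold change 0.51 ± 0.28, 95% interval -0.14 to 1.16, unadjusted p = 0.106, adjusted p = 1.00), and 0.42 ± 0.28 with N737H. UBE2L6, picked out after its values were seen, had a gap in WT in the same direction as ISG15, with 678 CPM in B and 315 CPM in A. HERC6 ranged from 50.9 to 68.2 CPM and USP18 from 263 to 340.1 CPM over the 8 libraries.

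DTX3L, a ubiquitin ligase that works as a dimer with PARP9, had the smallest unadjusted p of the group when the mean of the variants was set against WT. DTX3L had 339 and 324 CPM in B and A of R820W, 336 and 347 CPM in B and A of N737H, and 328 and 334 CPM in B and A of I593T, against 377 and 404 CPM in B and A of WT. All 6 variant libraries lay under both WT libraries. The log2 fold change of the mean of the variants was -0.22 ± 0.11 (95% interval -0.47 to 0.03, unadjusted p = 0.0750, adjusted p = 1.00), and the single variants gave -0.24, -0.19 and -0.24. PARP9, whose promoter window overlaps that of DTX3L, had 309 to 371 CPM in the variant libraries and 349.7 and 309.9 CPM in B and A of WT. With the mono-ADP-ribosyltransferases PARP12 and PARP14 included, the log2 fold changes of this set lay between -0.24 and 0.13 over the 3 variants.

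The antiviral effectors were the largest set, with 14 genes. IFITM3, which blocks entry of enveloped viruses and had the highest CPM of the set, had 1588 and 1397 CPM in B and A of R820W, 1392 and 1485 CPM in B and A of N737H, and 1759 and 1327 CPM in B and A of I593T, against 2185 and 1168 CPM in B and A of WT. BST2 (tetherin, which holds budding virions at the cell surface) and RSAD2 (viperin, which makes a chain-terminating nucleotide) were picked out after their values were seen. BST2 had 214 and 148 CPM in B and A of R820W, 163 and 159 CPM in B and A of N737H, and 207 and 149 CPM in B and A of I593T, against 267 and 78.6 CPM in B and A of WT. RSAD2 had 854 and 767 CPM in B and A of R820W, 522 and 785 CPM in B and A of N737H, and 431 and 561 CPM in B and A of I593T, against 831 and 333 CPM in B and A of WT. For IFITM3 and BST2 the WT libraries enclosed the 6 variant libraries, and for RSAD2 only R820W B lay above WT B. Over the 14 effectors the log2 fold changes lay between -0.18 and 0.48 with R820W, -0.30 and 0.29 with N737H, and -0.23 and 0.04 with I593T, with 9, 6 and 4 genes higher.

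Of the 9 other induced genes, LGALS3BP, a secreted galectin-binding glycoprotein, had 1139.8 and 946 CPM in B and A of R820W, 918 and 957 CPM in B and A of N737H, and 1202 and 894 CPM in B and A of I593T, against 1289 and 746 CPM in B and A of WT. Its log2 fold changes were 0.04, -0.12 and 0.04, with SE 0.27. IFI27, a common marker gene of interferon exposure and picked out after its values were seen, had 548 to 711 CPM in the variant libraries, against 979 and 414 CPM in B and A of WT. The set gave log2 fold changes between -0.15 and 0.31 with R820W, -0.26 and 0.34 with N737H, and -0.16 and 0.17 with I593T.

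**Figure D2:**
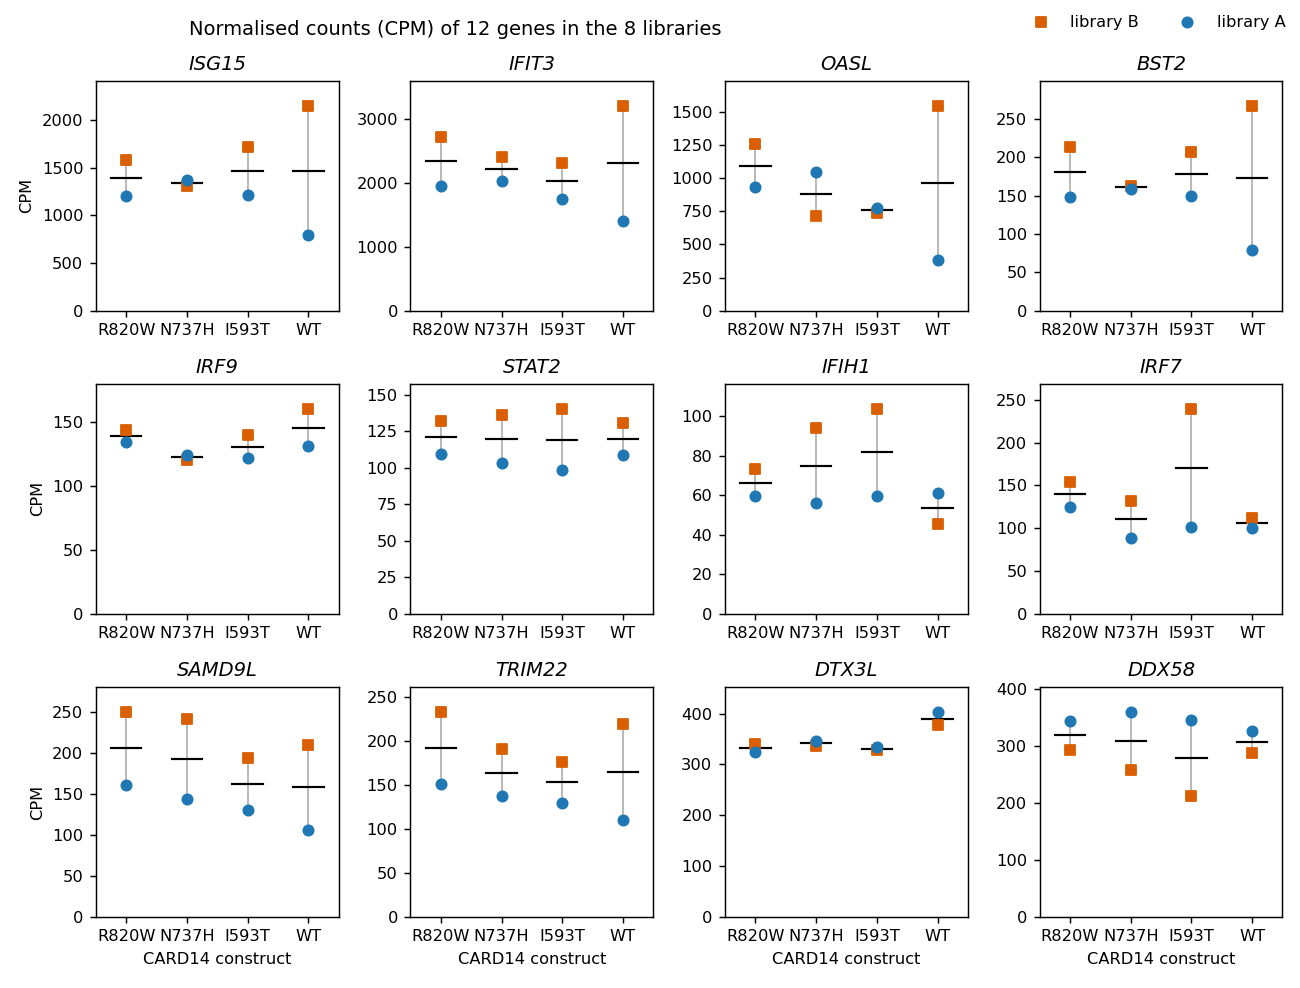
CPM (vertical axis, from 0) of 12 of the genes in each library, by CARD14 construct (horizontal axis). Squares are B libraries, circles are A libraries, and the black line is the mean of the 2. OASL, BST2 and ISG15 had the widest gaps in WT on the log2 scale (2.02, 1.76 and 1.45), STAT2 shows a gap in the same direction in each construct, and DTX3L 6 variant libraries under both WT libraries.

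Set against WT within a letter, the group was higher in the variants in A and lower or level in B. With R820W the median log2 CPM difference from WT was -0.10 in B, where 21 of 46 genes were higher, and 0.36 in A, where 39 were higher. With N737H it was -0.24 in B, with 11 of 46 higher, and 0.34 in A, with 34 higher. With I593T it was -0.21 in B, with 7 of 46 higher, and 0.18 in A, with 34 higher. All-gene medians in the same 6 differences lay between -0.04 and 0.00. The signs in B and A were opposite for 24 genes with R820W, 35 with N737H and 37 with I593T. Of all 14834 genes tested they were opposite for 7758, 8979 and 7824, so the count with R820W is close to the share of all genes. Higher than WT in both letters were 18 of the 46 with R820W (39.1%, all genes 22.9%). With N737H there were 5 (10.9%, all genes 16.7%) and with I593T 2 (4.35%, all genes 20.9%). OASL is the clearest case, with -0.30 in B and 1.29 in A for R820W, -1.12 in B and 1.46 in A for N737H, and -1.07 in B and 1.02 in A for I593T. IFIH1 ran the other way, with 0.68, 1.04 and 1.18 in B and -0.03, -0.13 and -0.03 in A for R820W, N737H and I593T. The same WT library enters all 3 differences within a letter, and each difference sets single libraries against each other, so it has no test.

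**Figure D3:**
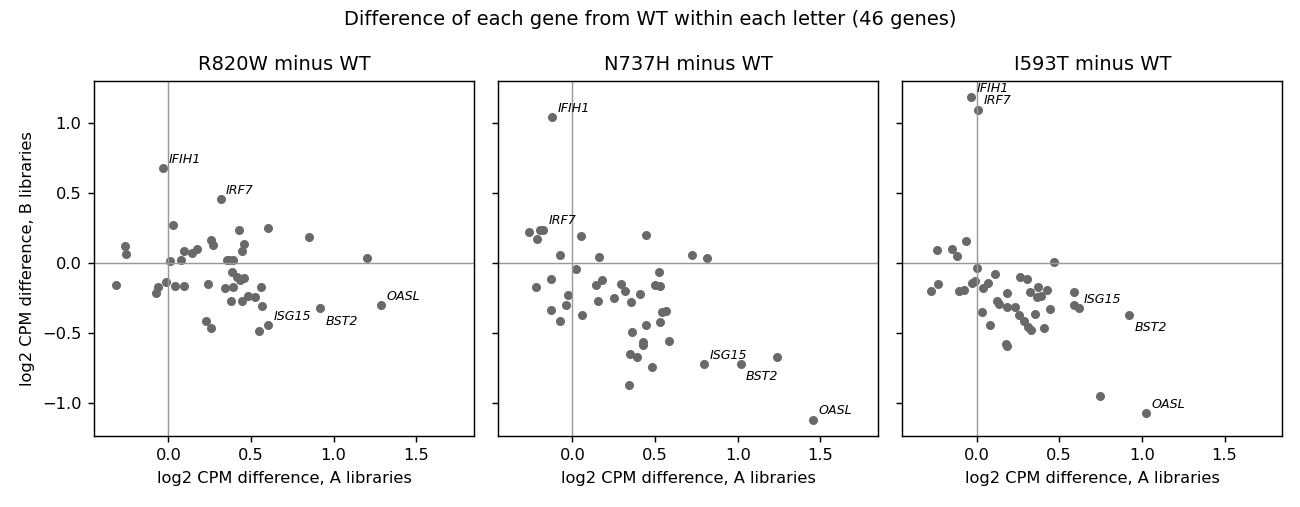
Difference in log2 CPM between each variant and WT for the 46 genes (points), in the A libraries (horizontal axis) and in the B libraries (vertical axis), with 1 panel per variant. Most points lie right of 0 and, for N737H and I593T, below 0. For N737H and I593T 35 and 37 of the 46 genes have opposite signs in the letters, against 8979 and 7824 of all 14834 genes tested. OASL and IFIH1 lie at opposite corners.

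Results against WT therefore moved with the WT library used. Without WT B the median log2 fold change was 0.48 with R820W, 0.34 with N737H and 0.38 with I593T, and 22, 10 and 8 of the 46 genes, all higher, had an unadjusted p under 0.05, against 5.91%, 4.90% and 5.16% of all genes. Without WT A the medians were -0.10, -0.17 and -0.22, and 3, 8 and 6 of the 46 genes, all lower, had an unadjusted p under 0.05, against 3.19%, 6.0% and 4.16% of all genes. No gene of the group had an adjusted p under 0.05 in either case. With 1 WT library left, its spread is taken to be like that of the other groups.

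The WT means do not enter the comparisons between variants, although the WT libraries enter the shared estimate of the spread. R820W was higher than N737H for 37 of the 46 genes, with a median log2 fold change of 0.09, and higher than I593T for 34, with a median of 0.11. I593T was higher than N737H for 21, with a median of -0.03. None of the 46 genes had an unadjusted p under 0.05 by edgeR's test in these comparisons, against 1.63%, 1.23% and 1.14% of all genes, and none was called by any of edgeR, DESeq2 or limma voom. Without WT A, and likewise without WT B, 3 of the 46 genes (OASL, RSAD2 and DDX60) had an unadjusted p under 0.05 for R820W against I593T, all higher with R820W, against 1.73% and 1.75% of all genes. Without R820W B the medians were 0.01 against N737H and -0.01 against I593T. That fit sets R820W A against both letters of the other variant, so the letter enters it. The median deviation of the 46 genes from their own mean log2 CPM was 0.175 and -0.030 in B and A of R820W. It was -0.025 and -0.037 in B and A of N737H, and 0.018 and -0.119 in B and A of I593T. By this measure R820W stood above I593T in both letters, and above N737H mainly in B, which was not tested.

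Between the letters, with the construct as a term, 2 of the 46 genes were called, SAMD9L and TRIM22, both higher in B. The same test called 480 genes of the whole table (3.24%), so in this fit the members' share of 2 in 46 is close to that of all genes. That depended on the fit. DESeq2 called 12 of the 46 (all genes 5.61%), and edgeR without the construct term called 8 (all genes 8.93%), in both cases a larger share than that of all genes. SAMD9L, a growth-restraining protein that inhibits translation, had 250.2, 242, 194 and 210.1 CPM in the B libraries of R820W, N737H, I593T and WT, against 161, 144, 131 and 106 CPM in the A libraries. TRIM22, a ubiquitin ligase that restricts several viruses, had 233, 191, 177 and 219.7 CPM in the B libraries of R820W, N737H, I593T and WT, against 151, 137, 129.9 and 110.4 CPM in the A libraries. For both genes every B library stood above every A library. The log2 fold change was 0.74 ± 0.10 for SAMD9L (SE, adjusted p = 0.0154) and 0.64 ± 0.11 for TRIM22 (adjusted p = 0.0364). Over the alternatives the adjusted p ran from 1.8e-07 to 0.133 for SAMD9L and from 0.00015 to 0.205 for TRIM22, and both calls were lost without R820W A, R820W B, I593T A or I593T B. Without WT A 8 of the 46 genes were called (all genes 6.86%) and without WT B 6 were (all genes 6.48%), with SAMD9L and TRIM22 among them each time.

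Over all 46 genes, these 2 included, the median log2 fold change was 0.26, with 35 of 46 genes higher, against a median of 0.03 over all genes tested. Without either WT library that median was 0.10, with 31 of 46 higher. At an unadjusted p under 0.05 there were 17 genes higher and 3 lower, 20 of 46, where all genes gave 23.0%. B libraries lay above all A libraries for 8 genes, namely STAT2, IFIT3, MX1, BST2, IFITM1, TRIM22, SAMD9L and IFI6 (all genes 8.0%). They lay below all A libraries for 4, namely DDX58, PARP12, PARP14 and GBP1 (all genes 10.0%). STAT2 averaged 135 ± 4.41 CPM in B and 105 ± 5.36 CPM in A (SD, n = 4 each), a log2 fold change of 0.36 ± 0.09 (adjusted p = 0.0691). DDX58 averaged 263 ± 37.3 CPM in B and 344 ± 13.6 CPM in A, a log2 fold change of -0.40 ± 0.11 (adjusted p = 0.0933). A letter holds 1 library of each construct, and whatever else differed between the letters cannot be told apart from it.

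The median log2 CPM difference between B and A over the 46 genes was 0.20 in R820W, -0.03 in N737H, 0.10 in I593T and 0.56 in WT, and 37, 21, 30 and 38 of the genes were higher in B. Over all genes the 4 medians lay between -0.04 and 0.01. Single genes in WT reached 2.02 for OASL, 1.76 for BST2, 1.45 for ISG15, 1.32 for RSAD2 and 1.24 for IFI27. By role, the median gap in WT was 0.89 for the IFIT family, 0.84 for the antiviral effectors, 0.76 for the other induced genes, 0.68 for the OAS family and 0.46 for the ISG15 system. In the variants the medians of these 5 sets lay between -0.12 and 0.30. For the transcription factors the variants were as wide or wider, with 0.27 in R820W, 0.40 in N737H and 0.52 in I593T, against 0.27 in WT. PARP9, PARP12, PARP14 and DTX3L gave -0.13, -0.12 and -0.06 in R820W, N737H and I593T, against -0.17 in WT, and the RNA sensors 0.18, -0.10 and -0.25, against -0.18 in WT. Among the 28 genes with the ISRE core in the promoter window the median gap in WT was 0.59, with a range from -0.57 to 1.76, and WT A was the lowest library for 15. Among the 11 with no match the median was 0.29, with a range from -0.18 to 1.10, and WT A was the lowest for 6. The ranges overlap widely, and no difference was tested.

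**Figure D4:**
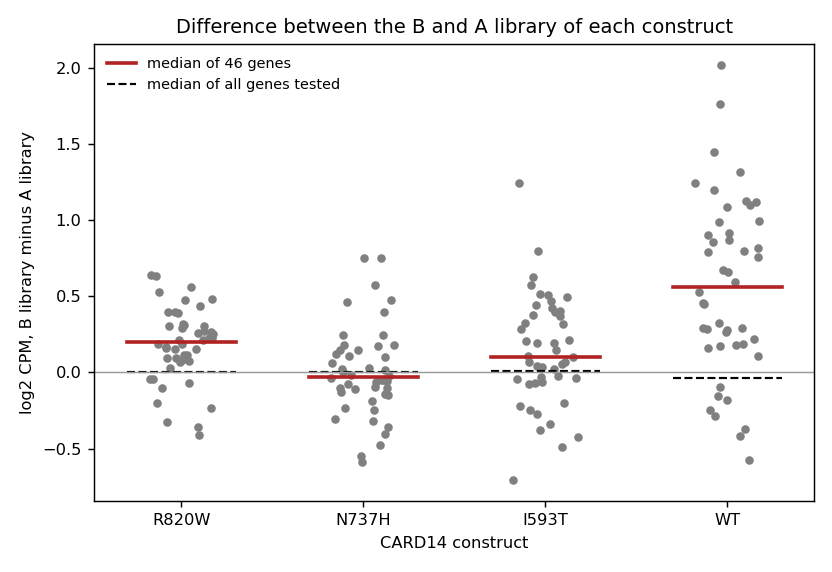
Difference in log2 CPM between the B and the A library (vertical axis) of each construct (horizontal axis) for the 46 genes (points, spread sideways for visibility). The red line is the median of the 46 genes, at 0.20, -0.03, 0.10 and 0.56 for R820W, N737H, I593T and WT, and the dashed line is the median of all genes tested, which stays within 0.04 of 0.

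The WT gap was set against that of the variants with an interaction term, added after the values were seen. Since WT has 1 library per letter, its gap has no replicate and the spread comes from the 3 variants alone, so the test assumes that WT varies as they do. It restates the gap that prompted it, and its counts describe these libraries without adding support. The WT gap exceeded that of the variants for 38 of the 46 genes, with a median log2 difference of 0.49 against -0.05 over all genes. At an unadjusted p under 0.05, 24 genes had the larger gap in WT, where all genes gave 9.90%, and 1 gene, IFIH1, had the smaller (25 in all, where all genes gave 17.5%). None of the 46 genes passed the adjusted threshold by edgeR's quasi-likelihood test, against 29 genes of the whole table (0.195%). The smallest adjusted p was 0.0557, reached by OASL with 2.08 ± 0.33 and BST2 with 1.42 ± 0.22 on the log2 scale (SE). RSAD2 followed with 1.59 ± 0.27 (adjusted p = 0.0711), IFI27 with 1.04 ± 0.20 (adjusted p = 0.0842) and ISG15 with 1.17 ± 0.24 (adjusted p = 0.0986), while IFIH1 gave -1.03 ± 0.23 (adjusted p = 0.104). Call counts here depended on the tool. DESeq2 called 16 of the 46 genes and 543 genes in all, and limma voom called 0 of 46 and 10 in all. With any 1 of the 6 variant libraries left out, its construct keeps 1 library and the spread rests on still fewer libraries. Calls from those fits are therefore not given.

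Of 10 interferon genes, 5 were counted well enough to be tested, and IFNW1 had no count in any library. IFNL1, a type III interferon, had 6.19 and 6.31 CPM in B and A of R820W, 4.92 and 3.59 CPM in B and A of N737H, and 4.45 and 2.46 CPM in B and A of I593T, against 3.52 and 1.74 CPM in B and A of WT. It was higher than WT in each of the 6 comparisons within a letter, and its log2 fold change was 1.25 ± 0.43 with R820W (unadjusted p = 0.0204, adjusted p = 1.00), 0.69 with N737H and 0.39 with I593T. IFNL2 had 1.74 and 2.56 CPM in B and A of R820W, 2.21 and 1.5 CPM in B and A of N737H, and 1.14 and 0.846 CPM in B and A of I593T, against 1.01 and 0.778 CPM in B and A of WT. IFNL3 had 1.30 and 1.94 CPM in B and A of R820W, 1.08 and 0.776 CPM in B and A of N737H, and 2.47 and 1.01 CPM in B and A of I593T, against 0.869 and 0.504 CPM in B and A of WT. IFNL2 and IFNL3 are near-identical, so the split of reads between them is uncertain. IFNB1, a type I interferon, had 0.630 to 2.31 CPM in the variant libraries, and 1.30 and 0.595 CPM in B and A of WT. IFNK, a keratinocyte type I interferon, had 0.0543 to 0.890 CPM in the variant libraries, and 0.193 and 0.504 CPM in B and A of WT.

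IRF1, a transcription factor induced mainly by interferon gamma, had 133 and 118 CPM in B and A of R820W, 82.5 and 93.2 CPM in B and A of N737H, and 80.6 and 80.0 CPM in B and A of I593T, against 127 and 64.2 CPM in B and A of WT. No gene of 8 further lists of the pathway had an adjusted p under 0.05 between any variant and WT. At an unadjusted p under 0.05 there were 3 such genes with R820W, all higher (all genes 1.04%), namely IFNL1, IFNL2 and the chemokine CCL5. With N737H there were 2, IFNL2 higher and WARS lower (all genes 2.44%), and with I593T there were 2, IFNGR2 higher and WARS lower (all genes 1.43%).

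Antigen presentation, a list of 17 genes for HLA class I molecules and their peptide supply, had a median gap of 0.91 between the WT libraries. Of these, WT A was the lowest library for 12 (all genes 18.1%) and WT B the highest for 11 (all genes 20.3%), and 15 of the 17 were higher in B across constructs, with a median log2 fold change of 0.31. None of the 17 was called between letters, and 6 higher and 1 lower had an unadjusted p under 0.05 (all genes 23.0%). B2M, the shared light chain of class I molecules and chosen after its values were seen, had 7376 and 6377 CPM in B and A of R820W, 6381 and 6992 CPM in B and A of N737H, and 7081 and 6757 CPM in B and A of I593T, against 9254 and 5931 CPM in B and A of WT. Among 40 other interferon-stimulated genes outside the 46, WT A was the lowest library for 16 and WT B the highest for 13. That list gave 2 calls between letters, a share near the 3.24% of all genes. CD274, which encodes PD-L1, was lower in B, with 9.07, 7.38, 7.17 and 6.76 CPM in the B libraries of R820W, N737H, I593T and WT, against 16, 14.4, 17.6 and 23.9 CPM in the A libraries (log2 fold change -1.23 ± 0.18, adjusted p = 0.0240). IL15RA, a receptor chain for interleukin 15, was higher in B, with 31.0, 29.9, 37.0 and 27.5 CPM in the B libraries of R820W, N737H, I593T and WT, against 21.6, 20.8, 20.6 and 19.5 CPM in the A libraries (log2 fold change 0.60 ± 0.11, adjusted p = 0.0380). CARD14 itself had 978 and 1127 CPM in B and A of WT. Its part in the gap of the 46 genes between those libraries, and in the other results, was not tested.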

How the data were processed

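RNA was measured in 8 libraries, 2 for each of 4 constructs. Per the labels' protocols, CARD14-knockout HaCaT cells in 10 cm dishes received 9 ug of plasmid, were given new medium at 2 h and were sorted for GFP at 24 h. RNA came from a mirVana kit and libraries from a low-input NEBNext kit. Raw counts of reads per gene symbol, whole numbers without normalization, were deposited by the authors in 1 table. The submitters' processing notes name hg19, FastQC, MACS2 and DESeq2, while how reads were aligned, assigned to genes and treated by strand is not given in the sources used here, so reads of paralogs (the IFIT, OAS and IFNL genes among them) or of overlapping genes may be split in ways that cannot be checked.

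Of 28518 gene rows, 5569 had no count. Genes were kept by filterByExpr (14834 genes, 99.9% of counts), scaled by TMM factors and fitted in edgeR 4.0.16 (R 4.3.3) with the quasi-likelihood model on all 8 libraries, with construct means alone and 4 residual degrees of freedom. The comparison of letters added the letter (3 residual degrees of freedom). The interaction of letter and construct left 2. Tests were two-sided, adjusted by Benjamini-Hochberg over all genes tested, with a threshold of 0.05. The common biological coefficient of variation was 0.262. Per-library values are CPM, and differences within a letter use log2 CPM (prior count 2). The procedure was tested on simulated data with known changes.

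The 46 genes and the other lists were chosen with earlier results of these data known. Values in all libraries are given, by rule, for the 2 genes of smallest unadjusted p in each comparison with WT and between letters (mean of at least 5 CPM), the gene of highest CPM in each role, STAT2, IRF7, IRF9 and any gene called. From the other lists, called genes, interferons detected and IRF1 are given, and genes withheld for evaluation are not named. Genes named beyond this rule were chosen after their values were seen. Alternatives were another scaling (RLE), other filters, DESeq2 1.42.0, limma 3.58.1 with voom, the letter as a block, removal of CARD14, and each library left out in turn. Promoter windows are from RefSeq (GRCh38.p14), matched by symbol or synonym, and were used for no coordinates of the counts.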

Additional observations from a re-analysis of the deposited data

How the results depend on the processing

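Between constructs, no gene of the 46 was called by edgeR under any scaling or filter, with the letter as a block, by DESeq2 or limma voom, or with any single library left out. Without a filter on low counts the genes called in the whole table numbered 2 for R820W against WT, 2 for N737H, 8 for I593T, 2 for the mean of the variants, 8 for R820W against N737H, 10 for R820W against I593T and 11 for I593T against N737H, and 760 between letters. In that setting 2 of the 46 genes (IRF7 and IFIH1) had an unadjusted p under 0.05 for I593T against WT, 1 (IFIH1) for the mean of the variants, 1 (RSAD2) for R820W against I593T and 1 (IRF7) for I593T against N737H. The shares of all genes in these comparisons were 2.41%, 2.10%, 2.22% and 2.66%. DESeq2 called 3 genes for I593T against WT, 2 for R820W against N737H and 1 for I593T against N737H. Between letters it called 1287 genes (5.61%), 12 of the 46 among them. Its median for R820W against I593T was 0.100.

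The deviations of libraries with the same letter correlated at 0.312 to 0.410 for 5 of 6 pairs of constructs and at 0.0242 for N737H with WT. As not every pair was above 0.1 and no label ties the letters to experiments, the letter was not used to pair the samples in the main test, although most pairs deviated together. With it as a replicate block, 1 of the 46 genes (SAMD9L) had an unadjusted p under 0.05 for R820W against WT, 2 (DTX3L and SAMD9L) for the mean of the variants, 1 (OAS3) for R820W against N737H, where 1 gene of the table was called, and 3 (SAMD9, SAMD9L and PARP14) for R820W against I593T. The shares of all genes in these comparisons were 2.59%, 3.55%, 3.55% and 2.60%. The replicate block in DESeq2 gave 1, 20 and 3 genes called for R820W, N737H and I593T against WT, 3 for the mean of the variants, and 28, 5 and 1 for R820W against N737H, R820W against I593T and I593T against N737H. In it 1 of the 46 genes had an unadjusted p under 0.05 for R820W, for I593T, for the mean of the variants, for R820W against I593T and for I593T against N737H. The shares of all genes in these comparisons were 1.16%, 1.91%, 1.71%, 1.53% and 1.09%. The median for R820W against I593T was 0.0980. Between letters without the construct term, 1324 genes (8.93%) and 8 of the 46 were called.

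With single libraries left out, the median log2 fold change ran from -0.10 (without WT A) to 0.48 (without WT B) for R820W against WT, from -0.22 to 0.38 for I593T and from -0.15 to 0.37 for the mean of the variants, by the same libraries. It ran from -0.0067 to 0.20 for R820W against I593T and from -0.095 to 0.020 for I593T against N737H. The number of the 46 genes with an unadjusted p under 0.05 ran from 0 to 22 for R820W against WT, 0 to 10 for N737H, 0 to 8 for I593T and 0 to 16 for the mean of the variants, each highest without WT B, from 0 to 3 for R820W against I593T and 0 to 1 for I593T against N737H. All genes called ran from 0 to 3 for I593T against WT, R820W against I593T and I593T against N737H, and from 0 to 1 for the mean of the variants. Between letters the genes called ran from 0 (without R820W A) to 1069 (without WT A), the calls among the 46 from 0 to 8, and those with an unadjusted p under 0.05 from 12 to 24. The causes of these changes were not tested.

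For the difference between WT and the variants in their gap between B and A, all alternatives were chosen after seeing the data. Without a filter 862 genes and 14 of the 46 were called, with at least 10 counts in at least 6 libraries 2 of the 46 (OASL and BST2), with DESeq2 543 genes and 16 of the 46, and with limma voom 10 genes. With single variant libraries left out the genes called ran from 232 to 1594 and the calls among the 46 from 6 to 16. The median stayed between 0.44 and 0.57 there, and 22 to 26 of the 46 genes had the larger gap in WT at an unadjusted p under 0.05. For the comparisons between constructs and between letters, 1778 log2 fold changes of single named genes were taken under the alternatives to those tests. Of these, 200 changed sign without having been called, 16 passed the threshold and 8 lost it. With 2 libraries a group, precision is limited by their number more than by depth.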
